A study of Mus musculus with 8 samples.

Results

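Heat shock proteins and their DnaJ partners were compared between RNA purified from UCP1-positive cells of inguinal white adipose tissue (inguinal WAT), perigonadal white adipose tissue (perigonadal WAT) and interscapular brown adipose tissue (BAT). The genes were taken by symbol, as every symbol that starts with Hsp and a further letter or digit, apart from Hspg2 and Hspbap1, or with Dnaj. This gave 73 of 22552 gene symbols, 28 of them Hsp and 45 Dnaj symbols. Hspd1, Hspe1, Hspa9 and Dnaja3, which fold proteins in the mitochondrial matrix, were kept apart from the other 69. All libraries came from females of a strain given as C57B/6 UCP1-TRAP, bred at 30 °C, weaned at 3 weeks of age into room temperature, placed at 4 °C at 4 weeks and sampled at 6 weeks, after 2 weeks of cold. The 3 groups were thus inguinal WAT (3 libraries), perigonadal WAT (2 libraries) and BAT (3 libraries) of cold-exposed females, with no group kept warm and no library of unbound RNA used here. In this strain the tag used for purification is tied to Ucp1, the uncoupling protein of brown and beige adipocytes, and polysomal RNA was pulled down with an antibody against GFP. The labels do not say that libraries of a depot came from separate mice, so p-values measure the spread between these libraries, which may be technical.

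Heat shock proteins are chaperones, which bind unfolded or partly folded proteins and are grouped by size into HSP90, HSP70, HSP60, HSP10 and small families. DnaJ proteins (HSP40) carry a J domain that starts the ATPase cycle of HSP70, and they bring it to a given substrate or membrane. Several of these genes are switched on by heat shock factor 1 when proteins unfold, others by the unfolded protein response of the endoplasmic reticulum, and many are made at all times. Brown adipocytes are rich in mitochondria, whose imported proteins depend on mitochondrial HSP70 and on the HSP60 and HSP10 folding chamber.

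The libraries were shallow, with 250704 (inguinal replicate 3) to 594398 fragments estimated on all genes in all libraries but perigonadal replicate 1, which was deeper, and the FPKM totals, of fragments per kilobase scaled to library depth, ran from 75925 in inguinal replicate 3 to 206549 in perigonadal replicate 1. Inguinal replicate 3 therefore reads low for most genes. Over the 8958 genes tested, the median log2 fold change against BAT was 0.03 in inguinal and 0.52 in perigonadal WAT, and that of inguinal against perigonadal WAT was -0.50. Dividing each library by its median ratio to the mean of all libraries brought these medians to 0.01, 0.03 and -0.01. Values on that scale are called scaled. They stand beside many of the deposited ones, and for some genes the scaled fold change alone is given. The adipocyte label was met, since Ucp1, Cidea, Adipoq, Fabp4, Plin1 and Pparg were above 0 in every library and together took between 3.62 and 4.42 percent of the FPKM total. Mammary luminal markers, 10 genes, were listed at 0 in every BAT library and summed to between 84.1 and 106.5 FPKM in inguinal WAT and 0.877 and 2.43 FPKM in perigonadal WAT. Smooth muscle markers, 9 genes, summed to between 43.1 and 138 FPKM in inguinal WAT, 9.03 and 16.9 FPKM in perigonadal WAT and between 7.46 and 8.53 FPKM in BAT.

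The chaperone genes as a whole held a similar share of the purified RNA in all 3 depots. Their summed FPKM was 0.870 ± 0.0369 percent of the library total in inguinal WAT (SD, n = 3). It was 0.786 ± 0.0458 percent in perigonadal WAT (SD, n = 2) and 0.835 ± 0.0763 percent in BAT (SD, n = 3). The BAT libraries overlapped those of both white depots, while all inguinal libraries lay above all perigonadal libraries, a difference that was not tested. Of the 73 genes, 57 reached the minimum for testing, 1 FPKM or more in 2 or more libraries. Of the other 16, Dnajb8, Dnajc5b, Dnajc5g and Hspb3 were listed at 0 in every library and the remaining 12 stayed at or below 1.25 FPKM. Of the 57 genes tested, 50 averaged 1 FPKM or more in BAT.

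Few of them differed between depots. By limma on log2(FPKM + 1) with Benjamini-Hochberg adjustment over all tested genes, 0 of 57 passed an adjusted p of 0.05 between inguinal WAT and BAT, where 2.2 percent of all tested genes did, and 2 were higher and 1 lower at an unadjusted p under 0.05, a bound that 8.53 percent of all genes met. Between perigonadal WAT and BAT 1 of 57 passed, the HSP70 relative Hspa12a, against a background of 5.18 percent, with 4.91 percent higher. At an unadjusted p under 0.05, 10 were higher and 0 lower in perigonadal WAT, where 21.5 percent of all genes met that bound. With inguinal replicate 3 left out, 9 of the 56 then tested passed in that comparison, all higher, while 14.9 percent of all genes passed (1326, against 464 with that library kept). These 9 were Dnajb1, Dnajb6, Dnajb9, Dnajc5, Dnajc8, Dnajc11, Hspa8, Hspa12a and Hspb8. After scaling, 3 passed in inguinal WAT against BAT (Hspa1b and Hspa12a higher, Hspe1 lower), against a background of 4.69 percent, or 3.04 percent higher and 1.65 percent lower. In perigonadal WAT against BAT 3 passed after scaling (Hspa12a higher, Hspe1 and Dnajc15 lower), against a background of 6.1 percent, or 2.63 percent higher and 3.46 percent lower. After scaling, 4 were higher and 3 lower for inguinal WAT at an unadjusted p under 0.05, beside 19.7 percent of all genes, and 2 higher and 3 lower for perigonadal WAT, beside 20.4 percent. These comparisons share the BAT libraries. With all 8 libraries, the shares of chaperone genes passing the adjusted p lay near or below the background in each comparison.

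The median log2 fold change of the 57 genes followed that of all tested genes. Against BAT it was 0.06 in inguinal WAT, beside 0.03 over all genes, and 0.55 in perigonadal WAT, beside 0.52. After scaling it was 0.06 and 0.04, beside 0.01 and 0.03. The middle 50 percent of the scaled values lay between -0.19 and 0.27 for inguinal WAT and between -0.18 and 0.24 for perigonadal WAT.

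**Figure D1:**
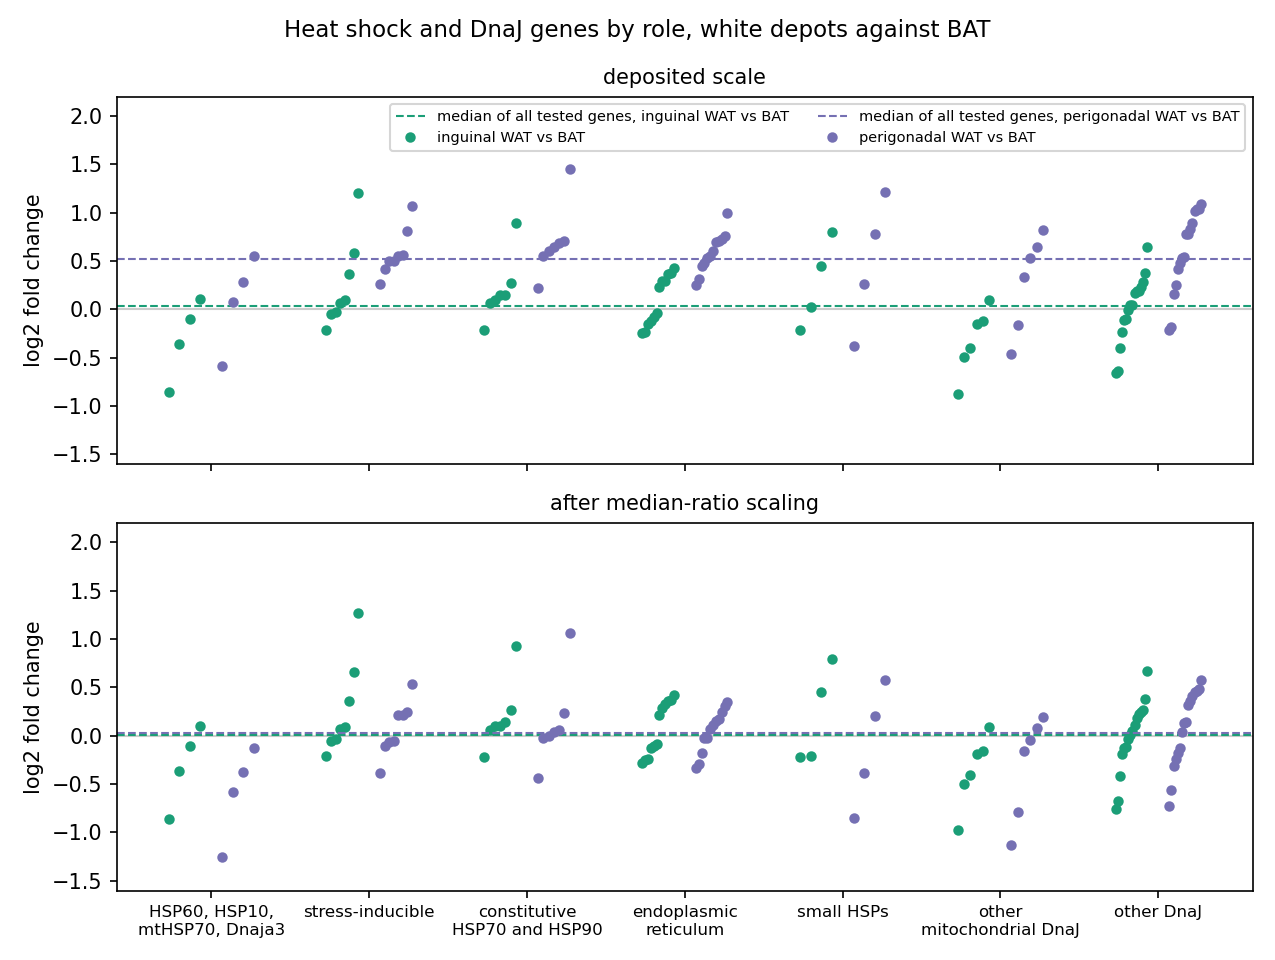
Log2 fold change of each tested heat shock and DnaJ gene (points) by role, for inguinal WAT and perigonadal WAT against BAT, on the deposited scale (top) and after median-ratio scaling (bottom). Dashed lines are medians over all 8958 tested genes, 0.03 and 0.52 on the deposited scale, and most points of each comparison lie close to its line.

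The same genes led the abundance order in every depot. Hspa9, mitochondrial HSP70, and Hspa8, the constitutive cytosolic HSP70 also called HSC70, shared the first and second place in each. Hspa9 had the higher mean in perigonadal WAT and BAT. In inguinal WAT the means were nearly equal, at 169.73 FPKM for Hspa8 and 169.71 FPKM for Hspa9. Hspa9 (chr18:35097069-35114005, mm9) had 200.4, 191 and 118 FPKM in inguinal WAT, 266 and 189 FPKM in perigonadal WAT and 143, 139.8 and 179.5 FPKM in BAT. The inguinal libraries spanned those of BAT and the perigonadal libraries lay above them, and its adjusted p was 0.995 for inguinal and 0.367 for perigonadal WAT against BAT (log2 fold changes 0.11 and 0.55, or 0.11 and -0.12 after scaling). Hspa8 (chr9:40609356-40613282) had 221, 174 and 114 FPKM in inguinal WAT, 212 and 213 FPKM in perigonadal WAT and 124, 124 and 161 FPKM in BAT, with adjusted p of 0.987 and 0.298. Its perigonadal libraries lay above the BAT libraries on the deposited scale, but the scaled log2 fold change was -0.02. Within each BAT library Hspa9 lay above Hspa8, while in each white depot the order of these genes changed between libraries. The difference between Hspa9 and Hspa8 was not tested. Below them Hsp90ab1, Dnajc15, Hspd1 and Hspe1 followed in an order that changed with the depot. Dnaja3, Hspa5, Hsp90aa1, Hspb1 and Hsp90b1 held places 7 to 11 in all 3. In all, 13 of the 73 genes had at least 10 FPKM in each of the 8 libraries.

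**Figure D2:**
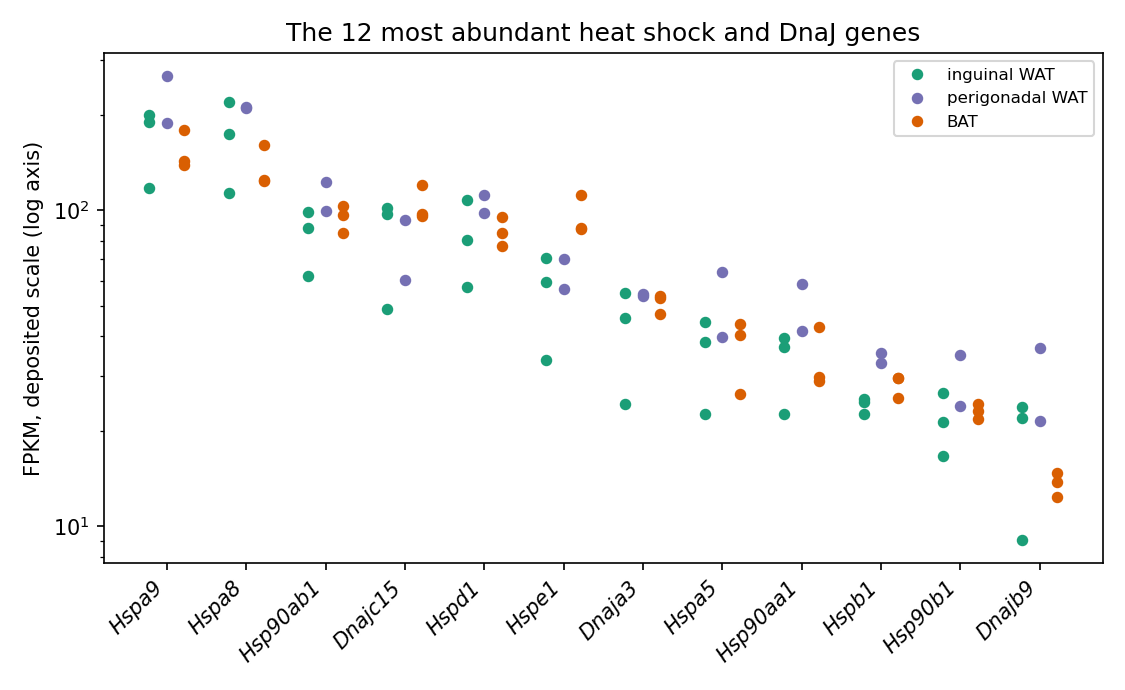
FPKM on the deposited scale (log axis) of the 12 most abundant heat shock and DnaJ genes, with a point for each library of inguinal WAT, perigonadal WAT and BAT. Hspa9 and Hspa8 lie highest in every depot, and the lowest inguinal point of most genes is replicate 3.

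Among the mitochondrial matrix chaperones, Hspe1 (HSP10, the lid of the folding chamber) was lower in both white depots after scaling, while Hspd1 (HSP60, the chamber itself), Hspa9 (the HSP70 that drives import) and Dnaja3 (its J protein) did not pass. Hspe1 (chr1:55144992-55148161) had 70.8, 59.4 and 33.7 FPKM in inguinal WAT, 70.1 and 56.4 FPKM in perigonadal WAT and 112, 87.9 and 87.2 FPKM in BAT. All BAT libraries lay above all libraries of the white depots. On the deposited scale the log2 fold change was -0.85 for inguinal WAT (SE 0.38, adjusted p = 0.424) and -0.59 for perigonadal WAT (SE 0.42, adjusted p = 0.380). Scaled values were 59.5, 53.3 and 63.0 in inguinal WAT, 39.5 and 49.8 in perigonadal WAT and 123, 98.9 and 100.3 in BAT, giving a log2 fold change of -0.86 in inguinal WAT (SE 0.17, adjusted p = 0.0183) and -1.25 in perigonadal WAT (SE 0.19, adjusted p = 0.00470). For inguinal WAT leaving out inguinal replicate 1, inguinal replicate 2 or BAT replicate 1 ended the scaled call (adjusted p = 0.0561, 0.0633 and 0.0758), and for perigonadal WAT leaving out perigonadal replicate 1 did (0.0575).

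Hspd1 (chr1:55134678-55144776) had 108, 80.8 and 57.4 FPKM in inguinal WAT, 112 and 98.0 FPKM in perigonadal WAT and 84.8, 77.2 and 95.6 FPKM in BAT. Its scaled log2 fold changes were -0.11 (adjusted p = 0.811) and -0.38 (adjusted p = 0.384), and the inguinal and BAT libraries overlapped. HSP60 and HSP10 work together, so their balance within a library, which no scaling between libraries can change, was also taken, a ratio chosen after the values were seen and not tested. Hspe1 over Hspd1 was 0.654, 0.735 and 0.587 in inguinal WAT, 0.627 and 0.576 in perigonadal WAT and 1.32, 1.14 and 0.912 in BAT, with no overlap between BAT and the white depots. Dnaja3 (chr16:4684070-4707693) had 54.95, 45.6 and 24.4 FPKM in inguinal WAT, 53.5 and 54.3 FPKM in perigonadal WAT and 52.8, 53.6 and 47.0 FPKM in BAT. Its scaled log2 fold changes, -0.37 and -0.58, had adjusted p of 0.308 and 0.141 (the second passed without perigonadal replicate 2), and all its scaled white depot values lay below those of BAT. The 4 genes together took 0.291 ± 0.0203 percent of the FPKM total in inguinal WAT (SD, n = 3), 0.256 ± 0.0183 percent in perigonadal WAT (SD, n = 2) and 0.305 ± 0.0295 percent in BAT (SD, n = 3). Their median scaled log2 fold change was -0.24 for inguinal and -0.48 for perigonadal WAT, beside 0.01 and 0.03 over all genes.

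**Figure D3:**
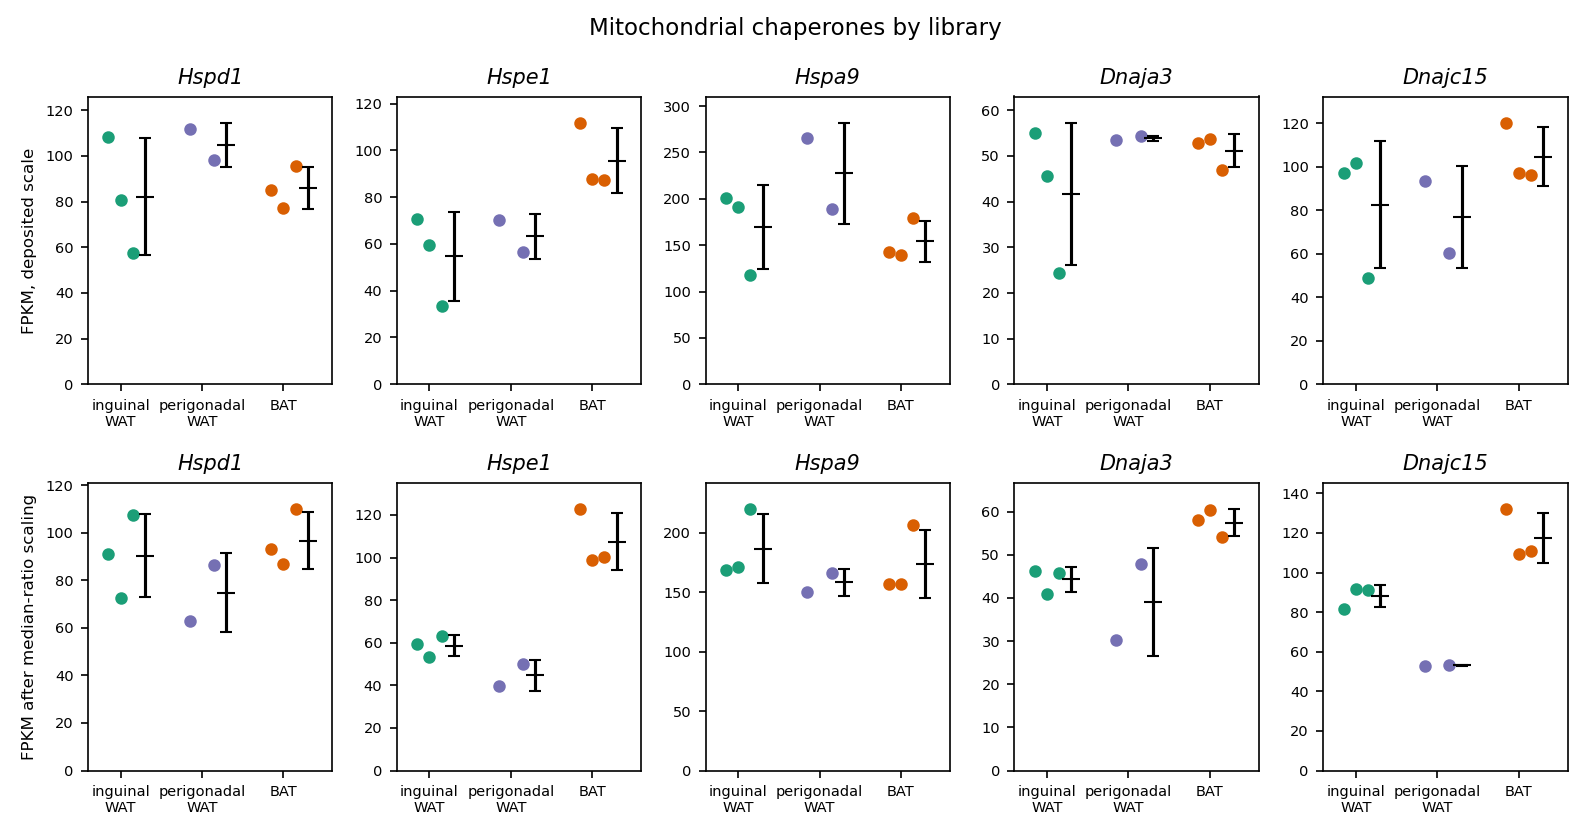
FPKM of the 4 mitochondrial matrix chaperones and of Dnajc15 in each library (points) with the mean and SD of each depot (bars), on the deposited scale (top) and after median-ratio scaling (bottom). Hspe1 lies between 39.5 and 63.0 in the white depots after scaling and between 98.9 and 123 in BAT, while inguinal WAT and BAT overlap for Hspd1 and Hspa9.

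Hspd1 and Hspe1 lie head to head on chromosome 1, with 215 bases between their starts both in the mm9 positions of the files (55144777-55144991) and in RefSeq on GRCm38.p6. The stretch between them is shown because both genes are transcribed away from it, while only Hspe1 was called. It is given 5′ to 3′ on the plus strand, so that Hspe1 starts after its right end and Hspd1 leaves from its left end on the minus strand (chr1:55087933-55088147, GRCm38.p6, RefSeq). Capitals mark the letters of the heat shock element, the site of heat shock factor 1, found here as GAANNTTC or TTCNNGAA on either strand.
Hspd1-Hspe1: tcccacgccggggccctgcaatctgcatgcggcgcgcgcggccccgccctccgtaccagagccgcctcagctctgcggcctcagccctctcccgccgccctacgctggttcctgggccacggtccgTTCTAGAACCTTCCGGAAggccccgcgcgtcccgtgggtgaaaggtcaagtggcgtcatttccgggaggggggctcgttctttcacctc
The marked run held 3 overlapping matches of the short motif and 2 of the longer GAANNTTCNNGAA or TTCNNGAANNTTC. In the 250 bases before the start, the longer motif was found in 0.466 percent of all 32851 RefSeq promoter windows and in 3 of the 59 chaperone genes that had a window (Hspd1, Hspe1 and Dnajb6). The windows of Hspd1 and Hspe1 hold the same run, so these 2 genes share 1 site, which counts for both here and among the short matches. The short motif was found in 12.8 percent of all windows and in 14 of the 59 genes, or 23.7 percent. Hspa1a and Hspa1b, whose windows are nearly identical, both count among these 14. For every motif here the background is counted per window, while a chaperone gene counts if any of its windows matches. The shares are therefore not in the same unit, and the difference between them was not tested. A match describes these letters and is not a measured binding site.

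The other mitochondrial J proteins were led by Dnajc15, a protein of the inner membrane related to a subunit of the import motor. Dnajc15 (chr14:78226024-78274724) had 97.1, 102 and 48.8 FPKM in inguinal WAT, 93.6 and 60.4 FPKM in perigonadal WAT and 120.3, 97.2 and 96.3 FPKM in BAT. Its scaled values were 81.7, 91.5 and 91.4 in inguinal WAT, 52.8 and 53.3 in perigonadal WAT and 132, 109.3 and 110.9 in BAT, so the depots did not overlap after scaling. It passed in perigonadal WAT after scaling (log2 fold change -1.13, SE 0.17, adjusted p = 0.00470; -0.46 and adjusted p = 0.477 as deposited) and did not pass in inguinal WAT (-0.41, adjusted p = 0.168). Dnajc19, the import motor subunit, had 17.0, 20.7 and 1.23 FPKM in inguinal WAT, 15.7 and 13.7 FPKM in perigonadal WAT and 16.3, 19.1 and 14.5 FPKM in BAT. The low inguinal value rests on 1 estimated fragment in replicate 3, against 17 to 28 in the other libraries. Of the 6 genes of this group, limma called 0 on the deposited scale in either white depot, also 0 at an unadjusted p under 0.05. That bound was met by 8.53 percent of all genes for inguinal and 21.5 percent for perigonadal WAT. Dnajc11, of the outer membrane, and Dnajc30 had scaled log2 fold changes between -0.16 and 0.19.

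Hspe1, Dnajc15 and Dnajc19 have short transcripts, of 768, 648 and 775 nt, and short transcripts of all kinds read lower in the white depots. Over the 443 tested genes with a longest transcript of 600 to 899 nt, the median scaled log2 fold change was -0.29 for inguinal and -0.53 for perigonadal WAT against BAT, and 5.64 and 16.7 percent of them were called lower. Over the 2302 genes of at least 4000 nt these medians were 0.08 and 0.19. With the trend on transcript length taken out of each scaled library, an alternative chosen after seeing the data, Hspe1 kept its direction and did not pass, at -0.56 for inguinal WAT (SE 0.14, adjusted p = 0.0618) and -0.67 for perigonadal WAT (SE 0.16, adjusted p = 0.0562). For Dnajc15 the values were then -0.03 in inguinal WAT (adjusted p = 0.947) and -0.43 in perigonadal WAT (adjusted p = 0.187). After this correction 3.83 percent of all tested genes passed for inguinal and 2.71 percent for perigonadal WAT, and of the chaperone genes 1 (Hspa1b, higher, as were 2.87 percent of all genes) and 0 passed. The part of transcript length in the ratio of Hspe1 to Hspd1, whose transcript has 2332 nt, was not tested.

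**Figure D4:**
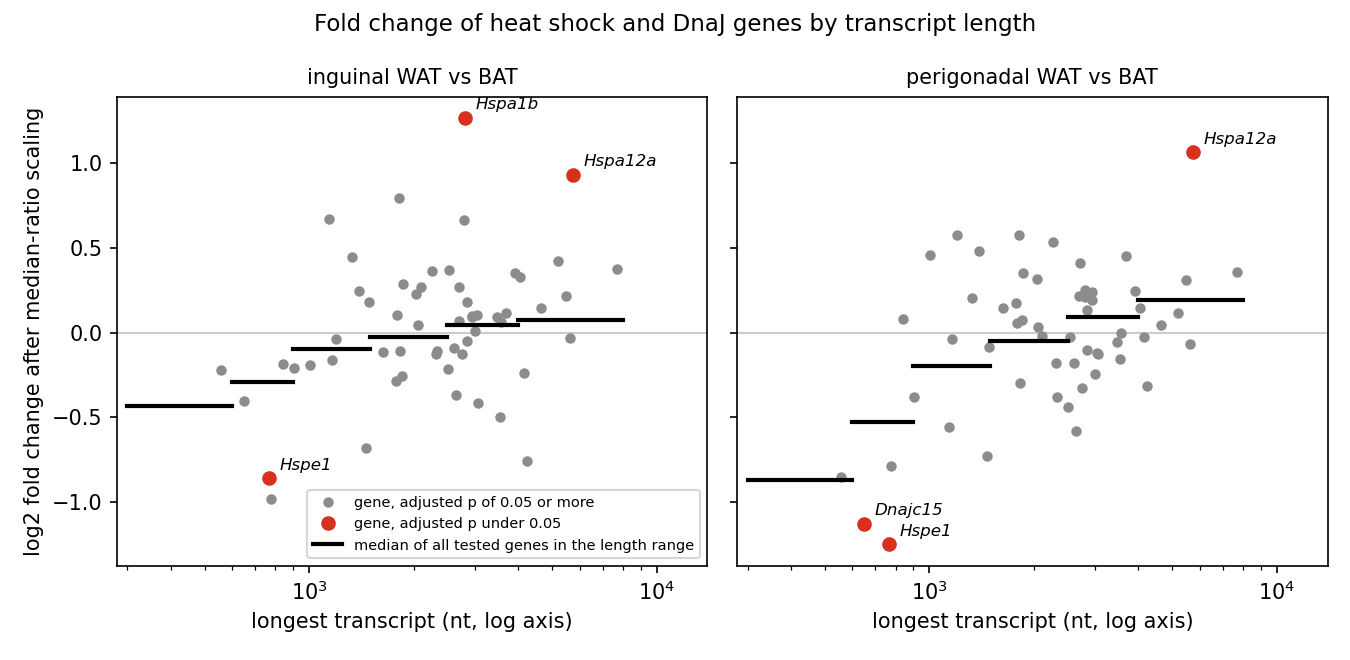
Scaled log2 fold change of each tested heat shock and DnaJ gene against its longest transcript (nt, log axis), with genes called at an adjusted p under 0.05 in red and black bars for the median of all tested genes in 6 ranges of length. In the range of 600 to 899 nt the bars lie at -0.29 for inguinal and -0.53 for perigonadal WAT, and Hspe1 lies below them at -0.86 and -1.25.

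Among the stress-inducible chaperones of the cytosol, the inducible HSP70 gene Hspa1b was higher in inguinal WAT than in BAT after scaling, at a low level. No other gene of the group passed with all 8 libraries. Hspa1b (chr17:35093374-35096183) had 2.37, 2.34 and 1.54 FPKM in inguinal WAT, 0.894 and 0.870 FPKM in perigonadal WAT and 0.271, 0.131 and 0.637 FPKM in BAT. As deposited the depots did not overlap, after scaling perigonadal WAT and BAT did, and the BAT values rest on 1, 1 and 5 estimated fragments, against 23, 22 and 16 in inguinal WAT. The log2 fold change for inguinal WAT was 1.20 (SE 0.37, adjusted p = 0.0694) as deposited and 1.27 (SE 0.25, adjusted p = 0.0182) after scaling, which understates the change of a gene this low. Leaving out inguinal replicate 3 (adjusted p = 0.0577) ended the scaled call, as did leaving out BAT replicate 1 or 2 (0.0660 and 0.0665). The deposited value in turn passed without inguinal replicate 3 (adjusted p = 0.0345) or perigonadal replicate 1 or 2 (0.0496 and 0.0421). For perigonadal WAT the log2 fold changes were 0.50 (adjusted p = 0.442) and 0.25 after scaling (adjusted p = 0.678). Against perigonadal WAT the inguinal value was 0.70 higher on the log2 scale (adjusted p = 0.409), or 1.02 after scaling (adjusted p = 0.259), so a difference between the white depots was not shown.

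Hspa1a, the neighbouring copy of the gene, had 1.39, 0.418 and 1.15 FPKM in inguinal WAT, 0.611 and 0.875 FPKM in perigonadal WAT and 0.273, 0.379 and 0.247 FPKM in BAT, and did not pass (scaled log2 fold changes 0.66 and 0.21, adjusted p = 0.274 and 0.799). Reads of Hspa1a and Hspa1b can hardly be told apart, so the division between them is uncertain and their sum was fitted as well, an alternative chosen after seeing the data. The sum was 3.76, 2.76 and 2.69 FPKM in inguinal WAT, 1.505 and 1.74 FPKM in perigonadal WAT and 0.543, 0.510 and 0.884 FPKM in BAT. The depots were apart as deposited, while perigonadal WAT and BAT overlapped after scaling. It passed for inguinal WAT against BAT on the deposited scale (log2 fold change 1.30, SE 0.37, adjusted p = 0.0407) and after scaling (1.37, adjusted p = 0.0175). For perigonadal WAT it had adjusted p of 0.314 and 0.591. The 250 bases before the start of each gene are shown because the copies are so alike, 5′ to 3′ on the minus strand (chr17:34959239-34959488 for Hspa1b and chr17:34972157-34972406 for Hspa1a, GRCm38.p6, RefSeq), with the short heat shock motif in capitals.
Hspa1b: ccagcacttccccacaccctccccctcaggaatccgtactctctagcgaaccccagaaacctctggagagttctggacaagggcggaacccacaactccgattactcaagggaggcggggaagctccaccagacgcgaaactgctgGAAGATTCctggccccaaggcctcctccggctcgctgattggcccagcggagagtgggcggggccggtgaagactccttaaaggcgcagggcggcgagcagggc
Hspa1a: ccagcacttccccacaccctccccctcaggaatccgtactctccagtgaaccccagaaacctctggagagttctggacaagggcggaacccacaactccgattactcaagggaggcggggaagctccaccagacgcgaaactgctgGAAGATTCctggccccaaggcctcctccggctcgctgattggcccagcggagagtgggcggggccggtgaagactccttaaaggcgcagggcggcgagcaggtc
These windows differed at 3 of 250 bases and each held 1 match of the short motif.

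The other inducible genes did not pass on either scale with all 8 libraries. Hsph1 (HSP110, which releases nucleotide from HSP70) had 4.90, 5.01 and 2.96 FPKM in inguinal WAT, 6.07 and 5.62 FPKM in perigonadal WAT and 3.57, 3.49 and 4.54 FPKM in BAT, with scaled log2 fold changes of 0.09 in inguinal WAT (adjusted p = 0.847) and -0.05 in perigonadal WAT (adjusted p = 0.934). Hsp90aa1, the inducible HSP90, had 37.0, 39.4 and 22.7 FPKM in inguinal WAT, 58.4 and 41.5 FPKM in perigonadal WAT and 28.8, 29.7 and 42.9 FPKM in BAT, with scaled log2 fold changes of -0.05 and -0.10. Hspb1 (HSP27 in human) had scaled log2 fold changes of -0.21 and -0.38, and Dnaja1 of -0.03 and -0.07. Dnajb1, the inducible HSP40, had 3.69, 4.57 and 2.23 FPKM in inguinal WAT, 5.38 and 6.997 FPKM in perigonadal WAT and 2.33, 2.08 and 2.85 FPKM in BAT. Its scaled log2 fold change was 0.36 in inguinal WAT (adjusted p = 0.460) and 0.54 in perigonadal WAT (adjusted p = 0.311). As deposited, Dnajb1 had 0.36 (adjusted p = 0.979) and 1.07 (adjusted p = 0.145), and the second passed without inguinal replicate 3. Of 8 tested genes in the group, limma called 0 on the deposited scale in either white depot. At an unadjusted p under 0.05, 1 was higher in each, beside 8.53 percent of all genes for inguinal and 21.5 percent for perigonadal WAT. After scaling limma called 1 for inguinal and 0 for perigonadal WAT, beside 4.69 and 6.1 percent of all tested genes. Immediate early genes, 10 genes that respond to tissue handling, summed to between 11.7 and 43.7 FPKM in inguinal WAT, 19.6 and 69.0 FPKM in perigonadal WAT and between 27.8 and 46.0 FPKM in BAT. Of the 8 tested, Atf3 passed, with less in inguinal WAT than BAT (log2 fold change -1.57, adjusted p = 0.0198). Epithelial and smooth muscle markers were highest in inguinal WAT, as Hspa1b was, and the part of those cells or of handling in its level was not tested. In purified RNA of a whole depot, more cells carrying a transcript and more of it per cell cannot be told apart.

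**Figure D5:**
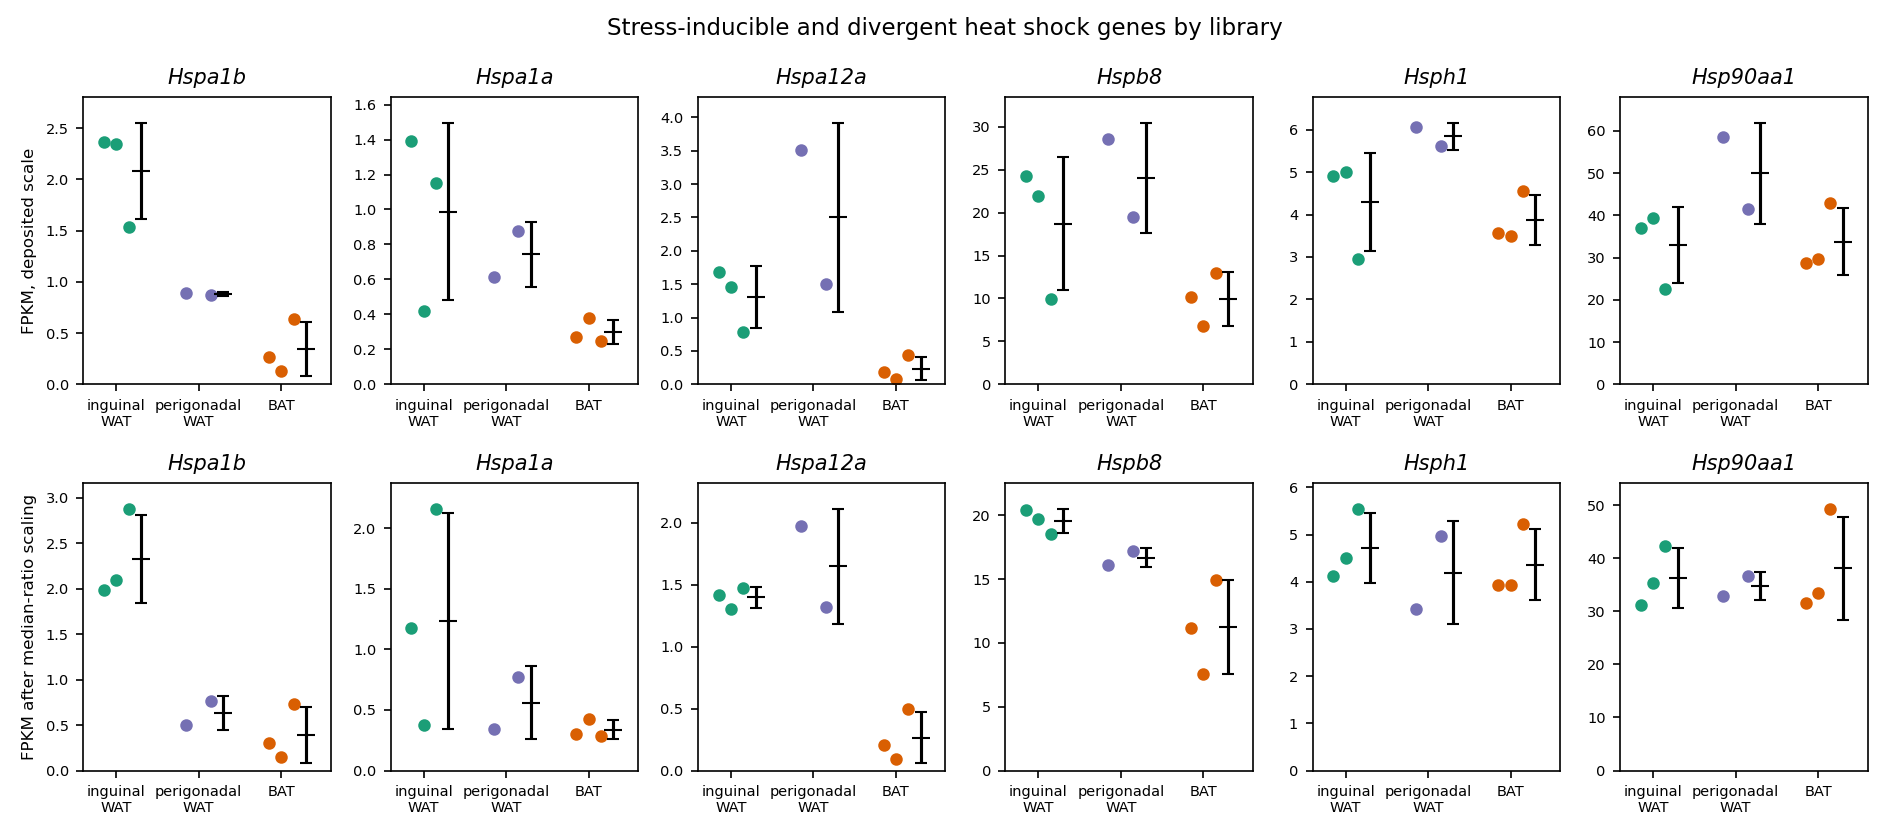
FPKM of Hspa1b, Hspa1a, Hspa12a, Hspb8, Hsph1 and Hsp90aa1 in each library (points) with the mean and SD of each depot (bars), on the deposited scale (top) and after median-ratio scaling (bottom). Hspa1b and Hspa12a are low in all BAT libraries, at or below 0.637 and 0.432 FPKM as deposited, while inguinal WAT and BAT overlap for Hsp90aa1.

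Hspa12a, a distant member of the HSP70 family, was the one chaperone gene called on the deposited scale. Hspa12a (chr19:58870241-58935474) had 1.69, 1.45 and 0.786 FPKM in inguinal WAT, 3.50 and 1.495 FPKM in perigonadal WAT and 0.186, 0.0860 and 0.432 FPKM in BAT. All white depot libraries lay above all BAT libraries, where the values rest on 2, 1 and 5 estimated fragments, against 9 to 53 in the white depots. The log2 fold change was 1.45 for perigonadal WAT (SE 0.42, adjusted p = 0.0243), or 1.07 after scaling (SE 0.26, adjusted p = 0.0366), and 0.89 for inguinal WAT (SE 0.37, adjusted p = 0.364), or 0.93 after scaling (SE 0.23, adjusted p = 0.0476). The deposited call was lost without perigonadal replicate 1 (log2 fold change 1.02, adjusted p = 0.785) and without BAT replicate 1, 2 or 3 (adjusted p = 0.0986, 0.117 and 0.0531). The scaled inguinal call was lost in each of the 8 fits that left out a library, with adjusted p from 0.0614 to 0.151, and the scaled perigonadal call in 6 of them, with adjusted p from 0.0536 to 0.338, all but those without inguinal replicate 3 (0.0389) or BAT replicate 3 (0.0483). Both scaled calls were also lost when only the groups compared were fitted (adjusted p = 0.0649 for inguinal and 0.0621 for perigonadal WAT) and with no filter on low values (0.0710 and 0.0639). With the length trend taken out, the scaled values were 0.87 (adjusted p = 0.106) for perigonadal and 0.85 (adjusted p = 0.0658) for inguinal WAT.

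No other constitutive chaperone of the cytosol passed with all 8 libraries. Hsp90ab1, the constitutive HSP90, had 98.8, 88.2 and 62.0 FPKM in inguinal WAT, 123 and 99.9 FPKM in perigonadal WAT and 84.6, 103 and 97.0 FPKM in BAT, and its scaled log2 fold changes were -0.22 (adjusted p = 0.589) and -0.44 (adjusted p = 0.287). Hspa4 and Hspa4l, of the HSP110 family, had scaled log2 fold changes of 0.15 and 0.06 in inguinal WAT, and that of Hspa4 was 0.04 in perigonadal WAT. Hspa2, an HSP70 of the testis, stayed below the minimum for testing, and of the 8 genes in this group Hspa12a alone was called on either scale.

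The chaperones of the endoplasmic reticulum showed no call in any comparison with all 8 libraries. Of 12 genes, all tested, limma called 0 higher and 0 lower in either white depot on either scale. At an unadjusted p under 0.05, 0 passed for inguinal and 1 for perigonadal WAT as deposited, and 1 and 0 after scaling. Of all genes, 8.53 and 21.5 percent met that bound as deposited, and 19.7 and 20.4 percent after scaling. Hspa5 (BiP, the HSP70 of this compartment) had 44.3, 38.4 and 22.7 FPKM in inguinal WAT, 64.0 and 39.7 FPKM in perigonadal WAT and 40.3, 26.3 and 43.7 FPKM in BAT, with scaled log2 fold changes of -0.09 and -0.18. Hsp90b1 (GRP94) had scaled log2 fold changes of -0.12 and -0.33. Dnajb9, a J protein induced by the unfolded protein response, had 23.9, 22.1 and 9.06 FPKM in inguinal WAT, 36.7 and 21.5 FPKM in perigonadal WAT and 14.7, 12.4 and 13.9 FPKM in BAT. Its scaled values lay above those of BAT in all white depot libraries, by 0.29 on the log2 scale in inguinal WAT (adjusted p = 0.357) and 0.35 in perigonadal WAT (adjusted p = 0.302). The deposited log2 fold changes of Dnajb9 were 0.30 (adjusted p = 0.992) and 0.996 (adjusted p = 0.196), and the second passed without inguinal replicate 3. Dnajc3, which also responds to unfolded proteins, had scaled log2 fold changes of 0.42 in inguinal WAT (adjusted p = 0.197) and 0.12 in perigonadal WAT (adjusted p = 0.795). The endoplasmic reticulum stress element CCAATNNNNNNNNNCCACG was found before the starts of Hspa5, Hsp90b1 and Dnajc3, 3 of 59 chaperone genes, and in 0.113 percent of all windows.

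Of the small heat shock proteins, which hold unfolded proteins without ATP, 4 of 8 were tested and limma called 0 on either scale. At an unadjusted p under 0.05, 0 passed for inguinal and 1, higher, for perigonadal WAT as deposited, and 1, higher, in each after scaling. The shares of all genes at that bound were 8.53 and 21.5 percent as deposited, and 19.7 and 20.4 percent after scaling. Hspb8, which works with the co-chaperone Bag3, had 24.3, 21.97 and 9.90 FPKM in inguinal WAT, 28.6 and 19.5 FPKM in perigonadal WAT and 10.1, 6.74 and 13.0 FPKM in BAT. After scaling all white depot values, 16.1 to 20.4, lay above those of BAT, 7.58 to 14.96, by 0.79 on the log2 scale in inguinal WAT (SE 0.22, adjusted p = 0.0702) and 0.58 in perigonadal WAT (adjusted p = 0.220). Without inguinal replicate 3 Hspb8 passed on the deposited scale in inguinal WAT (log2 fold change 1.18, adjusted p = 0.0332) and perigonadal WAT (1.21, adjusted p = 0.0148). After scaling Hspb8 passed in inguinal WAT with a minimum FPKM of 5 and without BAT replicate 3, where 9.68 and 2.8 percent of all tested genes passed. Hspb6 (HSP20), known from muscle, had 4.46, 10.05 and 3.75 FPKM in inguinal WAT, 8.77 and 6.05 FPKM in perigonadal WAT and 3.27, 3.33 and 5.12 FPKM in BAT, and its scaled log2 fold changes, 0.45 and 0.21, did not pass. Hspb2, Hspb3 and Hspb7, small heat shock proteins of skeletal muscle and heart, were at or below 0.612 FPKM in every library. Hspb11, a part of the ciliary transport complex rather than a typical small heat shock protein, was listed at 0 in inguinal replicate 3 and between 1.14 and 8.46 FPKM elsewhere.

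The other 26 DnaJ proteins, 16 of them tested, had 0 called by limma in either white depot on either scale. As deposited, 0 of 16 passed at an unadjusted p under 0.05 in inguinal WAT, where 8.53 percent of all genes did, and 6, all higher, in perigonadal WAT, where 21.5 percent did. After scaling it was 1 (lower) and 0, beside 19.7 and 20.4 percent of all genes. Dnaja2, a J protein of the cytosol, had 22.3, 18.2 and 10.7 FPKM in inguinal WAT, 33.8 and 18.5 FPKM in perigonadal WAT and 11.3, 16.1 and 15.7 FPKM in BAT. Its scaled log2 fold changes were 0.18 and 0.13. Dnajb6, which keeps aggregation-prone proteins apart, had 17.6, 12.3 and 6.59 FPKM in inguinal WAT, 22.9 and 17.3 FPKM in perigonadal WAT and 8.44, 10.1 and 9.03 FPKM in BAT. It passed in perigonadal WAT when only the groups compared were fitted (log2 fold change 1.04, adjusted p = 0.0448) and without inguinal replicate 3 (0.0205), and its scaled log2 fold changes were 0.27 (adjusted p = 0.442) and 0.41 (adjusted p = 0.279). Dnajb2 and Dnajc7 had scaled log2 fold changes between -0.41 and -0.13.

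Between the white depots no chaperone gene was called. Of 57 tested, limma called 0 in inguinal against perigonadal WAT on the deposited scale, where 0.703 percent of all tested genes passed, and 0 after scaling, where 0.29 percent passed. At an unadjusted p under 0.05, 3 were lower as deposited, where 12.4 percent of all genes passed, and 3 higher after scaling, where 7.62 percent passed. The median log2 fold change was -0.52 beside -0.50 over all genes, and 0.05 beside -0.01 after scaling. The log2 fold change of Hspe1 was -0.26 (adjusted p = 0.673), or 0.39 after scaling (adjusted p = 0.676), and that of Dnajc15 0.06 (adjusted p = 0.921), or 0.72 after scaling (adjusted p = 0.155).

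The genes that work with these chaperones showed few calls as well. Of 25 co-chaperones and regulators of HSP70 and HSP90, 23 were tested and limma called 0 in either white depot on either scale. At an unadjusted p under 0.05, 0 of 23 passed for inguinal WAT, beside 8.53 percent of all genes, and 6, all higher, for perigonadal WAT, beside 21.5 percent, as deposited. After scaling 3 were higher for inguinal WAT, beside 19.7 percent of all genes, and 2 higher and 1 lower for perigonadal WAT, beside 20.4 percent. Hspbp1, a nucleotide exchange factor of HSP70 whose symbol puts it among the 73 genes, had 5.16, 5.44 and 2.56 FPKM in inguinal WAT, 5.91 and 4.71 FPKM in perigonadal WAT and 6.14, 2.68 and 2.63 FPKM in BAT, and did not pass (scaled log2 fold changes 0.18 and -0.08, adjusted p = 0.759 and 0.920). Hsf1, heat shock factor 1, had 1.62, 2.50 and 1.07 FPKM in inguinal WAT, 3.39 and 1.16 FPKM in perigonadal WAT and 1.21, 1.27 and 0.645 FPKM in BAT (scaled adjusted p = 0.409 and 0.785). Of 18 genes of mitochondrial protein quality control, Hscb had less in inguinal WAT than BAT. It is a J protein that hands on iron-sulfur clusters and lies outside the Dnaj symbols. Over all tested genes, 1.65 percent were called lower for inguinal and 3.46 percent for perigonadal WAT after scaling. Hscb had 2.00, 2.04 and 2.33 FPKM in inguinal WAT, 5.24 and 3.12 FPKM in perigonadal WAT and 6.89, 7.69 and 6.03 FPKM in BAT, with all BAT libraries highest. Its log2 fold change was -1.33 (adjusted p = 0.0498) for inguinal WAT, or -1.34 after scaling (adjusted p = 0.0198), and -1.17 after scaling for perigonadal WAT (adjusted p = 0.0437). The matrix protease subunit Clpp was also lower in perigonadal WAT after scaling (-0.78, adjusted p = 0.0274), while the mitochondrial HSP90 gene Trap1 (0.48 and 0.19, adjusted p = 0.158 and 0.655) and the protease Lonp1 (0.33 and 0.22) did not pass. As deposited, 0 of the 18 genes were called for perigonadal WAT, where 5.18 percent of all tested genes passed. Hscb and Clpp have transcripts of 804 and 1207 nt, in the ranges of 600 to 899 and 900 to 1499 nt. Over all genes of the second range the scaled medians were -0.10 for inguinal and -0.20 for perigonadal WAT. In the first range 5.64 and 16.7 percent of genes were called lower after scaling, and in the second 2.05 and 4.92 percent, for inguinal and perigonadal WAT in turn.

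Of 13 subunits of TRiC and prefoldin, which fold actin and tubulin, limma called 0 as deposited, with 0 at an unadjusted p under 0.05. After scaling 2 were called lower in perigonadal WAT, as were 3.46 percent of all tested genes. These were the prefoldin subunits Pfdn1 (-1.11, adjusted p = 0.0210) and Pfdn5 (-0.86, adjusted p = 0.0300), with transcripts of 1077 and 678 nt. Among all tested genes of 900 to 1499 and of 600 to 899 nt, 4.92 and 16.7 percent were called lower there. The part of transcript length in these 2 calls was not tested. Of 14 other folding genes of the endoplasmic reticulum, 13 were tested and 1 was called, after scaling only. It was higher in inguinal WAT, as were 3.04 percent of all tested genes. P4hb, protein disulfide isomerase, had 14.6, 15.5 and 4.48 FPKM in inguinal WAT, 16.5 and 9.67 FPKM in perigonadal WAT and 4.73, 5.41 and 3.38 FPKM in BAT, with a scaled log2 fold change of 1.04 for inguinal WAT (adjusted p = 0.0273) and 0.73 for perigonadal WAT (adjusted p = 0.126).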

How the data were processed

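RNA sequencing of ribosome-bound RNA gave 8 libraries, grouped by the tissue in their titles. Per the submitters' processing notes, TopHat and Cufflinks were used with mm9. The sources used here give no versions or options. The deposited FPKM, computed by the authors for each library, covered 28702 transcripts of 22552 symbols. FPKM was summed per gene. Fragments were estimated from the deposited FPKM and its upper bound for genes with 1 transcript, where 85.2 to 93.4 percent of values below 50 came out whole within 0.05, and from genes of like length otherwise; they cover counting error only. Genes reaching 1 FPKM in 2 or more libraries, and with some transcript of 300 nt or longer, were tested with limma 3.58.1 (R 4.3.3, variance trend, two-sided), on log2(FPKM + 1), in 1 model of 3 groups with Benjamini-Hochberg adjustment over 8958 genes per comparison. A gene was called, or passed, at an adjusted p under 0.05. Fold changes on this scale understate low genes. Tested on simulated data for inguinal WAT against BAT, the fit recovered 200 of 200 genes changed by 2 on the log2 scale. It made 13 false calls among 8958 genes. The changed genes all had a mean log2(FPKM + 1) above 2, and the simulated noise was independent between genes, with no shifts of whole libraries. The simulation therefore does not show recovery of smaller changes or of low genes, or the rate of false calls with such shifts. The same fit was run on median-ratio scaled values, as an alternative that stands beside many of the results. For some genes only the scaled fold change is given. Python 3.11.15, pandas 2.3.3, numpy 2.4.6 and matplotlib 3.10.9 were used.

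The members and lists were chosen with earlier results of these data known. Named were 15 fixed genes, every member called on either scale, the 4 most abundant of each role group, and called genes of the other lists; further genes are named for counts or roles and were chosen after their values were seen. Promoter windows matched 59 of 73 symbols.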

Additional observations from a re-analysis of the deposited data

How the results depend on the processing

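Counts of heat shock and DnaJ genes called in the white depots against BAT moved with the setting. For inguinal WAT the deposited count of 0 became 3 with median-ratio scaling and 2 with quantile normalization. It became 1 each with the replicate block (Hspa1b), with Hspa1a and Hspa1b summed, and with scaling and the length trend removed. Of all tested genes 2.2 percent passed as deposited, and 4.69, 4.54, 3.13, 2.21 and 3.83 percent under these settings in turn. For perigonadal WAT the deposited count was 1, where 5.18 percent of all tested genes passed. It became 0 with a pseudocount of 0.1, with no filter on low values, with a minimum FPKM of 5, and with scaling and the length trend removed. In these fits 2.39, 0.772, 7.51 and 2.71 percent of all tested genes passed, in turn. It became 3 with median-ratio scaling, 2 with quantile normalization and 2 with only the groups compared, beside 6.1, 5.79 and 6.42 percent. The scaled count of 3 became 1 for inguinal and 0 for perigonadal WAT with the length trend removed. Leaving out each inguinal or BAT library in turn gave 0 to 2 for inguinal and 0 to 9 for perigonadal WAT as deposited. Of all genes 109 to 336 and 258 to 1326 were then called. After scaling the counts were 0 to 3 and 2 to 3, while 183 to 262 and 268 to 620 of all genes were called. Fits without a perigonadal library leave 1 in that group and are not in these ranges. Between the white depots the count was 0 under every alternative run. Over 32 named genes on the deposited scale, 1992 values under an alternative were set against the reported ones. Of these, 1777 kept their side of the threshold and, if not called, moved by less than the reported value's standard error. Another 185 stayed uncalled and moved by that much or more, 22 passed where the reported value had not, and 8 no longer passed. The sign changed in 142, with no call in either setting, and in none that passed. The cause of these changes was not tested. The replicate numbers were not taken as pairs, since deviations of same-numbered inguinal and BAT libraries correlated at 0.126, 0.0804 and 0.1003 and those of the other comparisons between -0.0871 and -0.0136. Each inguinal and BAT library did correlate best with its own number. With the replicate block, the scaled adjusted p of Hspa12a was 0.0636 for inguinal and 0.0529 for perigonadal WAT. Genes resting on a few fragments, such as Hspa1b, Hspa12a and Dnajc19, are limited by depth.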
